A study of Mus musculus with 6 samples.

Results

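Globin transcripts and other markers of the red cell lineage were followed in dendritic cells that had been sorted from mouse spleen by flow cytometry on CD11c. The set was 8 genes: the adult globins Hba-a1 and Hbb-b2, and Alas2, Ahsp, Slc4a1, Klf1, Gata1 and Car1. All probe sets whose platform symbol was 1 of these names were taken, which gave 12 of the 45037 probe sets tested and 7 of the 17097 genes measured. Ahsp, the chaperone of free alpha globin, had no probe set under its symbol in the annotation table and was not analysed here. The genes were chosen because globin RNA was already known to be lower in the knockout arrays, so their differences between the groups are descriptions without a test.

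The study compared 3 wild-type samples with 3 Map3k7 knockout samples of C57Bl/6 mice, with 1 Affymetrix array per sample. All mice had received tamoxifen in vivo for 3 days. The knockout mice carried the allele labelled Map3k7CreER, in which tamoxifen induces loss of Map3k7 (TAK1), a kinase that links Toll-like and cytokine receptors to NF-kB and MAP kinases. The promoter that drives the Cre is not given in the sources used here, nor are ages or the number of animals behind a sample. Deletion, the Cre transgene and any effect of deletion outside the sorted cells came together in the knockout group, so they cannot be told apart. The labels do not say whether replicates were different mice, so each p-value reflects the spread of these samples alone, which may be technical.

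Values are log2 expression after RMA, a procedure that corrects background, puts arrays on a common distribution and summarises the probes of a probe set. The array medians were 3.77 to 3.81, and a level near 4 is therefore that of a typical dim probe set, where a transcript may be unexpressed and a difference is understated. Arrays give no read depth, and their number limits the precision. Map3k7 was 6.65 ± 0.06 (SD, 3 arrays) in wild-type cells and 4.05 ± 0.41 in knockout cells on its brightest probe set, and it fell (limma adjusted p = 0.00128). The sorted cells carried dendritic cell markers: all 11 measured of 14 listed had a mean level at or above the 75th percentile of probe sets, with Itgax, which encodes CD11c, at 11.16 ± 0.16 and 10.93 ± 0.10 in the 2 groups.

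Red cells arise from erythroid progenitors in bone marrow and, in mice, also in the red pulp of the spleen. The transcription factors Gata1 and Klf1 switch on the genes of the lineage, Alas2 makes the first precursor of heme, alpha and beta globin chains join with heme to form haemoglobin, and Slc4a1 (band 3) and Car1 (carbonic anhydrase) serve carbon dioxide transport. Globin RNA becomes very abundant in late erythroblasts and persists in reticulocytes, the young red cells that have lost their nucleus. Dendritic cells are not known as a site of haemoglobin production.

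The promoters of the members are shown because Gata1 and Klf1 are members themselves and bind GATA and CACCC sequences of other red cell genes. RefSeq windows on GRCm38.p6 matched 4 of the 8 members, and the 250 bases before each gene's start are printed 5′ to 3′. Capitals mark exact matches, on either strand, to 1 of 4 motifs. The GATA motif was spelled AGATAA, and a first letter T or a last letter G was also allowed. The CACCC motif and the CCAAT box are spelled as named, and the motif ATATAA is called TATA-like.
Hba-a1 (chr11:32283422-32283671, plus strand): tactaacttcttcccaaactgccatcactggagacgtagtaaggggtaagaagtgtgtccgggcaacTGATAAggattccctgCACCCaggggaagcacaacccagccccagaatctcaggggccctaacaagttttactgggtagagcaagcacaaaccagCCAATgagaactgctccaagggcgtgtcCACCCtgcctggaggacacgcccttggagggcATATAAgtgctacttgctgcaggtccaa
Alas2 (chrX:150547167-150547416, plus strand): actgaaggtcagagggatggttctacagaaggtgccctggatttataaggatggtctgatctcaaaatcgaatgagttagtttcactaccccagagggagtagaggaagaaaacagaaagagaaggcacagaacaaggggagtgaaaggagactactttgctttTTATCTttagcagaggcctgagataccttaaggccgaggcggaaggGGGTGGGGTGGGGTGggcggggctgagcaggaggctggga
Klf1 (chr8:84901732-84901981, plus strand): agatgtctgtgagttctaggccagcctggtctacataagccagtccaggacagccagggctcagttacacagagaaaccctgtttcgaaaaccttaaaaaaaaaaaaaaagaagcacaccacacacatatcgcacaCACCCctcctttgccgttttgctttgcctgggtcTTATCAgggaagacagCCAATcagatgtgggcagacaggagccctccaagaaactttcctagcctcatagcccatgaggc
Gata1 (chrX:7967911-7968160, minus strand): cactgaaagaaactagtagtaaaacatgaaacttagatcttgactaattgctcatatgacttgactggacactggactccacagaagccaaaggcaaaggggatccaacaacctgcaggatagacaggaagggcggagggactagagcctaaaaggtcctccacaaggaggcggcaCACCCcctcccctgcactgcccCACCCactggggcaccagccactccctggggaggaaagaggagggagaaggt

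The Hba-a1 window held 1 GATA motif, 183 to 178 bases before the start, 2 CACCC motifs, 1 CCAAT box and 1 TATA-like motif, and it alone of the 4 held all of these kinds. The Alas2 window held 1 GATA motif and 3 CACCC motifs, the latter next to each other on the opposite strand from 40 to 26 bases before the start. The Klf1 window held 1 GATA motif, 1 CACCC motif and 1 CCAAT box, and the Gata1 window held 2 CACCC motifs and 0 GATA motifs. Over all 32851 promoter windows of this length, 26.5% held a GATA motif, 52% a CACCC motif, 33.8% a CCAAT box and 9.1% the TATA-like motif. These are matches of letters, not shown sites of binding. Hba-a2, the neighbouring alpha globin gene, was compared with Hba-a1 over the full windows of 300 bases, of which the first 250 are printed here. They matched at 297 of 297 bases after an offset of 3 bases.

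Alpha globin RNA was plentiful on the wild-type arrays and much lower on the knockout arrays. The brightest Hba-a1 probe set read 10.41, 10.73 and 8.50 in wild-type replicates 1, 2 and 3, and 7.02, 7.09 and 4.81 in knockout replicates 1, 2 and 3. No knockout value reached the lowest wild-type value, and replicate 3 was the lowest of its group on both sides. The means were 9.88 ± 1.21 and 6.31 ± 1.29 (SD, 3 arrays), a log2 difference of -3.57 (SE 0.74), or an 11.9-fold lower signal. In bulk samples, fewer cells of a type and less RNA per cell cannot be told apart.

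The second bright Hba-a1 probe set gave the same picture with its own numbers. It read 10.01, 10.29 and 7.85 in the wild-type arrays and 6.13, 5.53 and 4.51 in the knockout arrays, a difference of -4.0 (SE 0.65), or 16-fold lower. The third was much dimmer, at 4.85, 4.92 and 4.28 in wild-type arrays and 3.86, 4.0 and 3.77 in knockout arrays, with a difference of -0.81 (SE 0.17). Its knockout values lay close to the array medians. All 3 Hba-a1 probe sets thus separated the groups completely, and in all 3 replicate 3 was lowest in both groups. The suffixes _x and _s, which the 3 carry, denote probe sets that can match several transcripts, and Hba-a1 and Hba-a2 are near-identical copies, so the signal belongs to adult alpha globin rather than surely to Hba-a1.

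Beta globin followed alpha globin on 1 of its 3 probe sets. The bright Hbb-b2 probe set read 9.57, 9.78 and 7.99 in wild-type replicates 1 to 3, and 6.42, 6.48 and 5.41 in knockout replicates 1 to 3. The groups again did not overlap, and replicate 3 was again lowest in each. The means were 9.11 ± 0.98 and 6.10 ± 0.60 (SD, 3 arrays), a log2 difference of -3.01 (SE 0.48), or an 8.05-fold lower signal. The other Hbb-b2 probe sets stood near or below the array median in both groups and their groups overlapped, at 3.42 to 3.68 against 3.20 to 3.69 (difference -0.12, SE 0.14) and at 3.04 to 3.23 against 2.86 to 3.11 (difference -0.15, SE 0.11). The bright one also carries the _s suffix, so several globin transcripts can bind it. Hbb-b2 is the name in the platform annotation, whereas RefSeq lists the adult beta globin genes of C57BL/6J as Hbb-bs and Hbb-bt, so the signal may come from those genes.

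Replicates of a group differed widely for the globins. Within the wild-type group the brightest Hba-a1 probe set spanned 2.24 log2 units, and within the knockout group 2.27, against a gap of 1.41 between the lowest wild-type and the highest knockout array. For the bright Hbb-b2 probe set the spans were 1.78 and 1.07 and the gap 1.51. Wild-type replicate 3 lay 2.08 (Hba-a1) and 1.68 (Hbb-b2) below the mean of the other wild-type replicates, and knockout replicate 3 lay 2.24 and 1.04 below the mean of the other knockout replicates. Leaving out any 1 array kept the difference between -4.27 and -2.83 for Hba-a1 and between -3.57 and -2.66 for Hbb-b2.

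Alpha and beta globin were compared within each array through the offset between their probe sets, which has meaning only as a change between arrays. The brightest Hba-a1 value minus the bright Hbb-b2 value was 0.84, 0.95 and 0.50 in the wild-type arrays and 0.60, 0.61 and -0.60 in the knockout arrays. With the second Hba-a1 probe set it was 0.44, 0.52 and -0.14 in the wild-type arrays and -0.29, -0.95 and -0.91 in the knockout arrays. The offset was smaller in knockout than in wild-type arrays by the second probe set, without overlap, while by the brightest it stood apart in knockout replicate 3 alone.

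**Figure D1:**
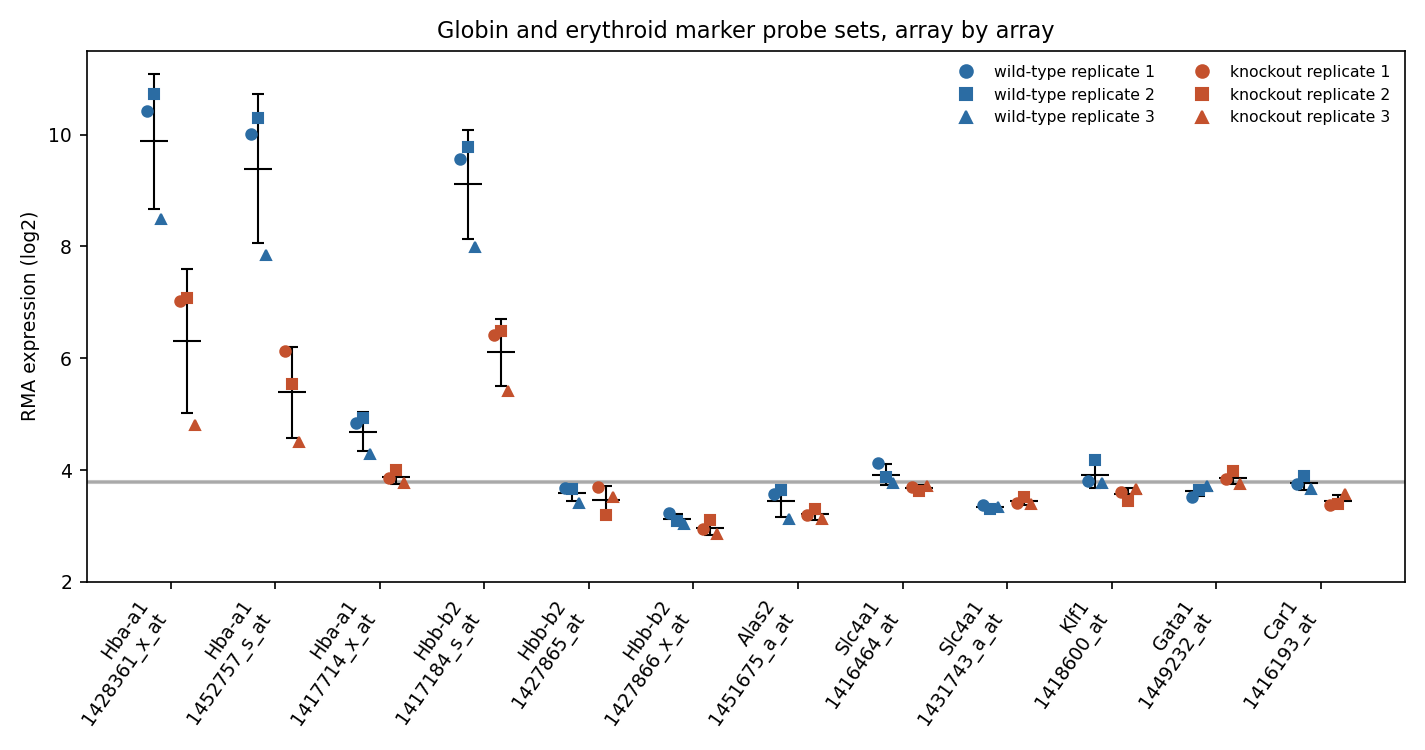
RMA expression (log2) of the 12 probe sets of the 7 measured genes in each of the 3 wild-type arrays (blue) and 3 knockout arrays (red), with the mean and SD of each group as black bars and the range of array medians, 3.77 to 3.81, as a grey band. The bright Hba-a1 and Hbb-b2 probe sets reach 7.85 to 10.73 in wild-type arrays, while every probe set of Alas2, Slc4a1, Klf1, Gata1 and Car1 lies between 3.12 and 4.18.

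The large globin difference was not accompanied by differences of like size in the other members, all of which were dim in both groups, with mean levels between the 17.1th and the 51.1th percentile of all probe sets. Over their 6 probe sets the values ran from 3.12 to 4.18 on any array, and the differences from -0.34 to 0.23. At that level RMA values respond little to RNA amount, so these data neither show nor bound a matching fall in these genes.

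Alas2, the erythroid form of the first enzyme of heme synthesis, read 3.58, 3.65 and 3.12 in wild-type arrays and 3.20, 3.30 and 3.12 in knockout arrays. The groups overlapped, with a difference of -0.25 (SE 0.15). Wild-type replicate 3, the array with the least globin of its group, was also the lowest here.

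Slc4a1, the anion exchanger band 3 of the red cell membrane, gave probe sets with opposite signs. The first read 4.12, 3.87 and 3.76 in wild-type arrays and 3.69, 3.62 and 3.72 in knockout arrays (difference -0.24, SE 0.11). The second read 3.37, 3.30 and 3.33 against 3.42, 3.52 and 3.39 (difference 0.11, SE 0.09). Neither overlapped between groups, the first with the knockout arrays below and the second with them above. The mean of both probe sets differed by -0.06.

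The erythroid transcription factors also went in different directions. Klf1, an activator of adult beta globin, read 3.81, 4.18 and 3.76 in wild-type arrays and 3.61, 3.45 and 3.66 in knockout arrays, a difference of -0.34 (SE 0.13) without overlap. Gata1, the regulator of the red cell and megakaryocyte lineages, read 3.52, 3.65 and 3.71 in wild-type arrays and 3.84, 3.98 and 3.75 in knockout arrays. It was thus the 1 member gene whose brightest probe set was higher in knockout arrays, by 0.23 (SE 0.10), again without overlap.

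Car1, the carbonic anhydrase of red cells, read 3.76, 3.90 and 3.66 in wild-type arrays and 3.37, 3.39 and 3.57 in knockout arrays. The groups did not overlap, and the difference was -0.33 (SE 0.11). Knockout replicate 3, the array with the least globin of all, had the highest Car1 value of its group.

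In all, 10 of the 12 member probe sets had a negative difference, beside 53% of all probe sets. In 7 every knockout array was below every wild-type array, beside 8.83% of all probe sets, and in 2 every knockout array was above, beside 8.64%. With limma and Benjamini-Hochberg adjustment over all 45037 probe sets, 2 of the 12 passed the threshold of 0.05 as lower, beside 0.391% of all probe sets, and 0 as higher, beside 0.804% (1.19% in either direction). Those 2 were the second Hba-a1 probe set and the bright Hbb-b2 probe set. Since the genes were chosen on this contrast, nothing is read from these counts.

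**Figure D2:**
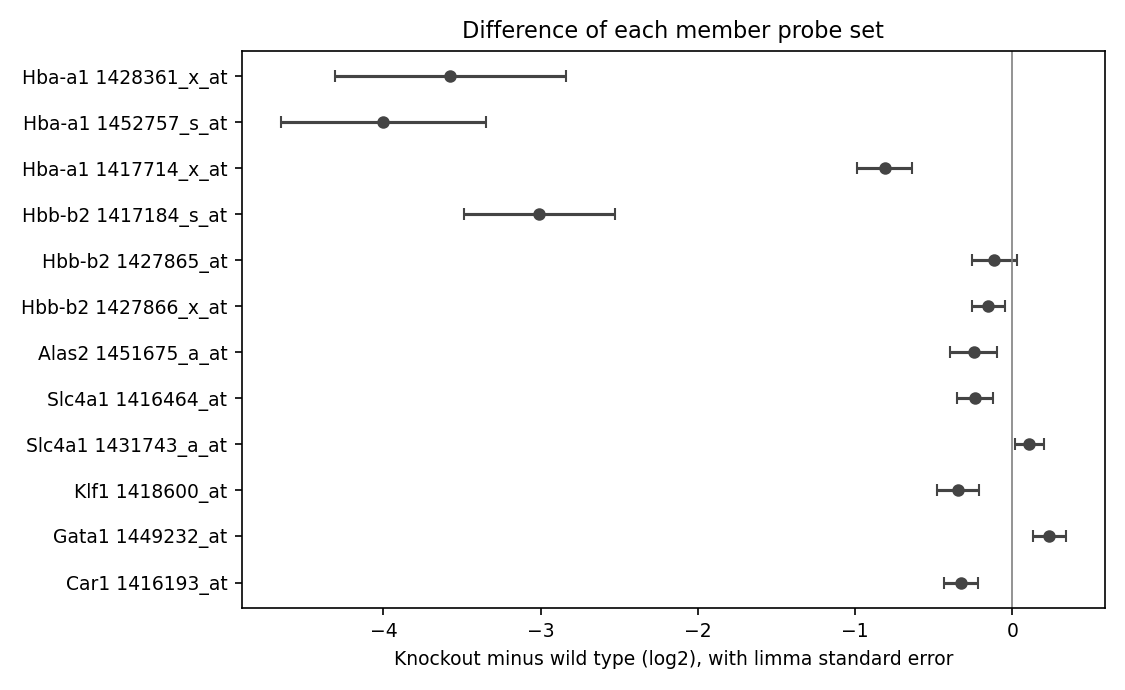
Difference between knockout and wild type (log2) of each of the 12 member probe sets, with the limma standard error as horizontal bars. The 3 bright globin probe sets lie between -4.0 and -3.01, the dim Hba-a1 probe set at -0.81, and the other 8 between -0.34 and 0.23.

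The order of arrays within the wild-type group, which the choice of genes did not use, was partly shared. Wild-type replicate 3 was the lowest wild-type array on 10 of the 12 member probe sets, and on 4 of the 6 that are not globins, against 35.4% of all probe sets. The order replicate 2 above replicate 1 above replicate 3 appeared in 7 of the 12, among them the bright globin probe sets, Alas2, Klf1 and Car1, against 20.6% of all probe sets. In the knockout group replicate 3 was lowest on 8 of the 12, but on only 3 of the 6 that are not globins, against 36.2% of all. For Klf1 and Car1 the wild-type values spanned under 0.5 log2 units, near the array median, and probe sets of an array are not independent, so this is a description of these arrays.

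The other red cell genes, 84 in 6 groups, were read for movement around the members. The dim ones among them can neither show nor bound a fall. Of these, 67 had a probe set under their symbol. With limma 1 fell and 0 rose at an adjusted p under 0.05, beside 0.591% and 1.08% of all genes. At an unadjusted p under 0.05, 5 were lower and 5 higher. The share of all genes at that unadjusted threshold was not counted. The unadjusted counts here and below therefore have no background beside them, and nothing is read from them. Their median difference was -0.03, beside -0.02 over all genes, and 42 of 67 were negative, beside 53.9% of genes. In 8 every knockout array was below every wild-type array and in 7 every one was above, beside 10.6% of genes each way. Of the 67, 34 had a mean level at or above the 75th percentile of probe sets. These include 10 heme synthesis genes, which all cells use, so the bright genes do not speak for red cells alone.

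Of 11 other globins listed 4 had a probe set under their symbol, and all 4 were dim. Hba-a2, the second adult alpha globin, read 4.49, 4.48 and 3.88 in wild-type arrays and 4.43, 4.25 and 4.78 in knockout arrays on its single probe set, with a difference of 0.21 (SE 0.20, limma adjusted p = 0.776). Its groups overlapped, and its difference had the opposite sign to those of the Hba-a1 probe sets. The embryonic globins Hbb-y (-0.10, limma adjusted p = 0.828), Hbb-bh1 (-0.02) and Hba-x (-0.01) lay between 3.11 and 3.86 on every array. None of the 4 had an unadjusted p under 0.05 (0 of 4).

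Heme synthesis genes are used by all cells and were well measured, 10 of 13 at or above the 75th percentile of mean level. None passed with limma (0 of 13), and at an unadjusted p under 0.05 0 were lower and 2 higher. These were Slc25a38, the mitochondrial glycine carrier, at 0.35 (SE 0.14, limma adjusted p = 0.36), and ferrochelatase, Fech, which inserts the iron into heme, at 0.31 (SE 0.13, limma adjusted p = 0.381). Dimmer Fech probe sets stood at 0.76 and 0.52 without overlap (limma adjusted p = 0.191 and 0.0829), and at -0.01 with overlap. The dimmer Flvcr1 probe set stood at -0.67 without overlap (SE 0.16, limma adjusted p = 0.108), and its brightest at -0.23 with overlap. A dim Abcb10 probe set stood at 0.19 without overlap. The list median was -0.02.

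Among 17 genes of the red cell membrane and its skeleton 0 passed on their brightest probe sets (limma). At an unadjusted p under 0.05, 2 were lower and 1 higher, and the median was -0.03. The higher one was Slc14a1, at 0.50 without overlap (SE 0.20, limma adjusted p = 0.368). Its dimmer probe set stood at 0.57 with overlap. A dimmer probe set of Stom passed as higher (0.78, SE 0.12, limma adjusted p = 0.0256). The brightest of Stom stood at 0.07, and its others ran from -0.41 to 0.47. Gypc, a glycophorin, was the lowest of the 67 genes, at 8.35, 8.25 and 8.82 in wild-type arrays and 7.86, 7.41 and 7.55 in knockout arrays, a difference of -0.87 (SE 0.18, limma adjusted p = 0.0709). Its groups did not overlap, but wild-type replicate 3, low in globin, was its highest array. Over 14 alternative settings its adjusted p ran from 0.0452 to 0.251 and it passed in 3. Epb42, a skeleton protein, stood at -0.29 near the array median (limma adjusted p = 0.345). The lineage-restricted genes Rhag, Kel and Sptb lay between 2.99 and 4.16 on every array, with differences of -0.07, 0.00158 and -0.03. Of other dim genes, Aqp1 stood at -0.25 without overlap, Ermap at -0.25, Rhd at -0.12, Dmtn at 0.11 and Xk at 0.24. In all, 11 of the 17 were negative, beside 53.9% of genes.

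Of 12 erythroid regulators E2f2, a cell cycle transcription factor needed in late erythroblasts, fell, and 0 rose. It read 6.67, 6.60 and 6.74 in wild-type arrays and 6.16, 6.13 and 6.15 in knockout arrays, a difference of -0.53 (SE 0.09, limma adjusted p = 0.0376). On this probe set it did not follow the order of globin among wild-type arrays, being highest in replicate 3. Its other, dimmer probe set read 6.58, 6.41 and 6.36 against 5.79, 5.73 and 5.64, with replicate 3 lowest in both groups. There the difference was -0.73 (SE 0.10, limma adjusted p = 0.0175). In the alternative settings E2f2 was taken on its brightest probe set, or on the mean of its probe sets. It passed in 6 of 14, with limma adjusted p from 0.00946 to 0.164, but not after any single array was removed (0 of 6). The next by p in this list was Klf3, a repressor related to Klf1, at 0.57 (SE 0.15, limma adjusted p = 0.154). The lineage factors Tal1, Nfe2 and Gfi1b stood at -0.17, -0.16 and -0.14, with all values between 3.36 and 3.82. Zfpm1, also dim, stood at 0.07. Ldb1 stood at 0.31, Bcl11a at 0.04 and Lmo2 at -0.03. Myb stood at -0.36, Zbtb7a at -0.29 and Sox6 at -0.15. In all, 8 of the 12 were negative, beside 53.9% of genes. At an unadjusted p under 0.05, 1 of the 12 was lower and 1 higher, and the median was -0.14.

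Of 8 genes of erythropoietin signalling and iron uptake 0 passed with limma, and 1 was lower and 0 higher at an unadjusted p under 0.05 (median -0.14). The signal transducer Stat5a stood at -0.32 (SE 0.12, limma adjusted p = 0.309). The transferrin receptor Tfrc, abundant on cells that take up iron, stood at -0.39 (SE 0.17, limma adjusted p = 0.417). The erythropoietin receptor Epor lay between 3.66 and 3.92 on all arrays, at the array median.

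Of 13 red cell enzymes and maturation genes 0 passed, with 1 lower and 1 higher at an unadjusted p under 0.05 (limma) and a median of 0.03. Bnip3l, needed to clear mitochondria from reticulocytes and expressed in many cells, stood at 0.32 (SE 0.11, limma adjusted p = 0.248). The carbonic anhydrase Car2 stood at -0.24 (SE 0.10, limma adjusted p = 0.367), beside -0.33 for Car1. Hemgn and Trim10, both expressed in erythroblasts, lay between 2.98 and 4.22, with differences of -0.10 and -0.11.

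**Figure D3:**
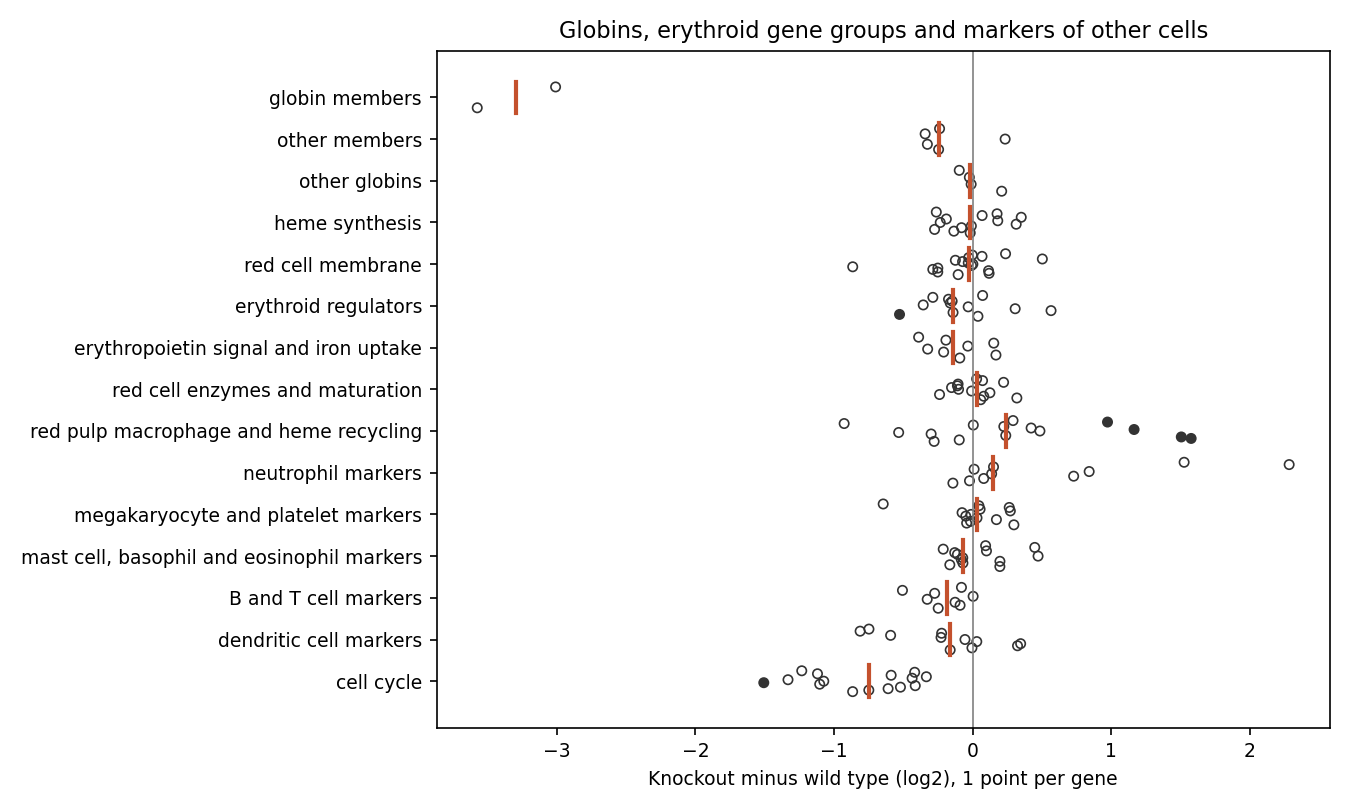
Difference between knockout and wild type (log2) of each gene, 1 point per gene on its brightest probe set, for the members, the 6 other red cell groups and 7 groups of markers of other cells. Filled points passed limma at an adjusted p under 0.05, members are drawn open whatever their p because they were chosen on this contrast, and red bars are medians. The globins at -3.57 and -3.01 stand apart from the 67 other red cell genes, which run from -0.87 to 0.57.

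Markers of other cells that a splenic gate could hold are given beside the globin difference, and their part in it was not tested. Gata1 is shared with megakaryocytes, mast cells and eosinophils. Of 13 platelet and megakaryocyte markers 0 passed, with 1 lower and 0 higher at an unadjusted p under 0.05 (limma), and their mean level was 4.13 to 4.27 in wild-type and 4.19 to 4.22 in knockout arrays. Vwf stood at -0.65 (limma adjusted p = 0.119) and Selp at 0.26 (limma adjusted p = 0.547), and the platelet factors Pf4 and Itga2b lay between 3.42 and 4.14. Of 13 mast cell, basophil and eosinophil markers 0 passed, with 0 lower and 2 higher at an unadjusted p under 0.05 (limma), and mean levels of 3.63 to 3.69 and 3.69 to 3.72. Siglecf, an eosinophil lectin, stood at 0.45 (limma adjusted p = 0.168) and Hdc, the histidine decarboxylase, at 0.47 (limma adjusted p = 0.368).

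Red pulp macrophages engulf aged red cells and recycle their heme iron. Of 15 genes of these cells and of heme recycling 4 rose and 0 fell, beside 1.08% and 0.591% of all genes, while 6 were higher and 3 lower at an unadjusted p under 0.05 (limma). The mean level was 7.89 to 8.06 in wild-type and 8.14 to 8.40 in knockout arrays. Those that rose were the haemoglobin scavenger receptor Cd163 (1.58, SE 0.18, limma adjusted p = 0.00933), Mertk, a receptor for dying cells (1.16, limma adjusted p = 0.0115), Cd5l (1.51, limma adjusted p = 0.0166) and transferrin, Trf (0.97, limma adjusted p = 0.0291). After removal of single arrays Cd163 still passed in 5 of 6 fits, Mertk in 3, Cd5l in 2 and Trf in 1. Without knockout replicate 2, 0 of the 15 passed as higher. In all, 6 of the 15 had every knockout array above every wild-type array and 3 had every one below, beside 10.6% of genes each way. The 6 included 2 genes that did not pass. These were Slc11a1 (0.42, SE 0.11, limma adjusted p = 0.155) and the ferritin heavy chain Fth1 (0.24, SE 0.09, limma adjusted p = 0.33). The 3 genes with every knockout array below did not pass either. They were Treml4 (-0.93, SE 0.26, limma adjusted p = 0.168), the ferritin light chain Ftl1 (-0.30, SE 0.10, limma adjusted p = 0.25) and the heme-degrading enzyme Hmox1, which heme induces. Hmox1 stood at 8.01, 8.39 and 7.93 in wild-type arrays and 7.47, 7.64 and 7.61 in knockout arrays (-0.53, limma adjusted p = 0.134). Spic, the transcription factor of red pulp macrophages, stood at 0.00474 (limma adjusted p = 0.995).

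Cell cycle genes are expressed in dividing erythroblasts as in other dividing cells. All 15 measured were below 0 in their difference, beside 53.9% of genes. The median was -0.75 beside -0.02 over all genes, with mean levels of 8.23 to 8.60 in wild-type and 7.29 to 8.07 in knockout arrays. The helicase subunit Mcm2, 1 of the 15, fell (-1.51, SE 0.23, limma adjusted p = 0.029) and 0 rose, beside 0.591% and 1.08% of all genes. With limma, 12 were lower and 0 higher at an unadjusted p under 0.05. Mcm3 stood at -1.07 (limma adjusted p = 0.0554). Without knockout replicate 1, 6 of the 15 passed as lower, and without any other single array 0 did. Over all probe sets the fit without knockout replicate 1 also called more, 362 lower against 176 with all arrays. Wild-type replicate 3, low in globin, had the highest Mcm2 value (8.64) and Mcm3 value (7.96) of all arrays. Most of the list went the other way. Wild-type replicate 3 was the lowest wild-type array for Plk1, Tyms, Rrm2, Pcna, Cdk1, Birc5, Mki67, Ccna2, Aurkb, Bub1 and Cdc20.

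Of 10 neutrophil markers 0 passed, with 0 lower and 4 higher at an unadjusted p under 0.05 (limma), led by S100a8 (2.28, SE 0.60, limma adjusted p = 0.147) and Mmp8 (0.84, limma adjusted p = 0.139), with mean levels of 4.01 to 4.23 and 4.38 to 5.21. Of 8 B and T cell markers 0 passed, with 1 lower and 0 higher at an unadjusted p under 0.05, led by Ms4a1 (-0.51, limma adjusted p = 0.275) and Cd3d (-0.25, limma adjusted p = 0.44), with mean levels of 5.34 to 5.36 and 5.08 to 5.18. Of 11 dendritic cell markers 0 passed, with 3 lower and 2 higher at an unadjusted p under 0.05, led by Zbtb46 (-0.75, limma adjusted p = 0.0621) and Irf8 (-0.59, limma adjusted p = 0.121), with mean levels of 11.17 to 11.24 and 10.99 to 11.02.

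Likeness to the globin pattern was measured as the root mean square difference between a probe set's 6 values, centred on their mean, and those of the brightest Hba-a1 probe set. The second Hba-a1 probe set (0.42 log2 units) and the bright Hbb-b2 probe set (0.51) were the nearest of all 45037. The 8 nearest genes outside the members were Serpinb2 (0.93), Map3k7 (0.93, on a probe set other than its brightest), Apol7a (0.94), Cd207 (0.99), Apol7c (1.06), Hspa1b (1.1), Kctd14 (1.11) and Fdps (1.14). None of the 67 other red cell genes was among these 8, and the dim Hba-a1 probe set stood at 1.62. Alas2 stood at 1.88, Klf1 at 1.90, Car1 at 1.92, the first Slc4a1 probe set at 1.94 and Gata1 at 2.16. Since the measure depends on the size of a difference, genes with small values on every array come out far from globin whatever their order.

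Replicate 3 was the lowest of its group on both sides in 6 of the 8 neighbours, as in the bright globin probe sets, and Cd207 and Hspa1b were the exceptions. The neighbours were picked for nearness to the Hba-a1 values, which favours this order, so nothing is read from the count. Serpinb2, a serpin that inhibits plasminogen activators, read 8.08, 6.92 and 6.35 in wild-type arrays and 5.10, 4.16 and 4.03 in knockout arrays. Cd207, the langerin receptor of a dendritic cell subset, read 7.94, 8.58 and 8.06 against 6.85, 4.59 and 4.14, with replicate 3 close to replicate 1 in the wild-type group. Fdps, an enzyme of isoprenoid synthesis, read 8.81, 8.98 and 7.57 against 7.28, 6.94 and 6.35. Of 17 probe sets at least 2 log2 units lower in knockout arrays, 3 were the bright globin probe sets. The members were chosen on this contrast, so nothing is read from this count.

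**Figure D4:**
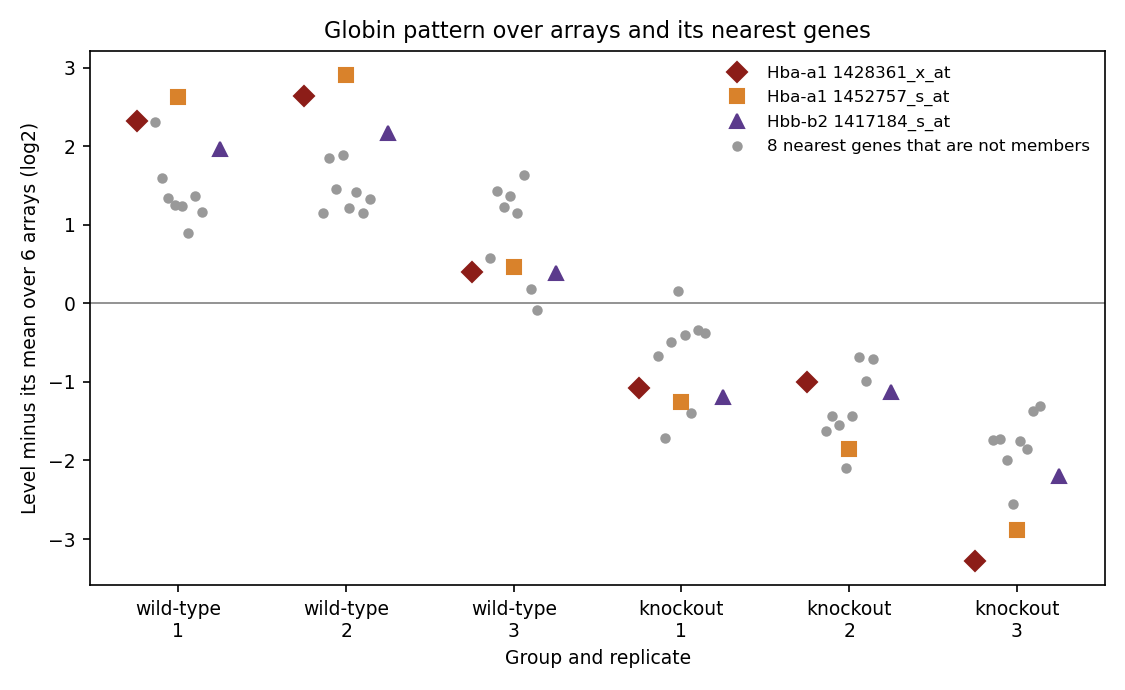
Level of each bright globin probe set minus its own mean over the 6 arrays (log2, coloured symbols), by group and replicate, with the 8 nearest genes outside the members in grey. The globin symbols stand lower in wild-type replicate 3 than in wild-type replicates 1 and 2, as do Kctd14, Fdps and Serpinb2 among others, and they lie farthest apart in knockout replicate 3.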

How the data were processed

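Per the submitters' processing notes, the authors used RMA and Affymetrix Expression Console 1.1, and the deposited values are log2 expression. The platform is an Affymetrix array labelled from 100 ng of RNA per sample, and the genome build behind its annotation is not given in the sources used here. RMA keeps no detection call and compresses differences of dim probe sets. Of 45141 probe sets, 104 controls were left out. The platform annotation gave 28898 probe sets 1 symbol, 551 several and 15588 none, and 28689 matched RefSeq through the Entrez gene ID, which changed 0 symbols. Probe sets with several symbols name no gene here, and 31 of 190 listed genes had no probe set under their symbol and were not analysed here. Outside the members the brightest probe set by mean level stands for a gene, except in the search for genes near Hba-a1, which covered all probe sets.

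Differences (knockout minus wild type) came from limma 3.58.1 in R 4.3.3 (lmFit and eBayes without covariates), with Benjamini-Hochberg adjustment over 45037 probe sets and a threshold of 0.05. The members and gene lists were chosen with earlier results of these data known. The motifs were chosen with the promoter sequences at hand. Named are all members, Map3k7, up to 4 genes past the threshold per list or, with fewer than 2, the 2 of smallest p, and the 8 genes nearest to Hba-a1. Genes named beyond these (such as Epor, Tal1, Rhag, Aqp1, Stom, Pf4, Hmox1, Treml4, Ftl1, Spic and Cdk1) were chosen after their values were seen. On simulated data over 45037 probe sets limma found 10% of log2 changes of size 0.5, 74% of size 1, 94% of size 2 and 100% of size 3, with 11 false calls among 150. Alternatives were a level filter, renewed centring or quantile normalization, no _s, _x or _a probe sets, trended robust variances, a block for the replicate number, array weights, averaging all probe sets of a gene, and leaving out each array. Figures used matplotlib 3.10.9 in Python 3.11.15.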

Additional observations from a re-analysis of the deposited data

How the results depend on the processing

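No member difference changed by more than the spread between its replicates, except as means over probe sets, where Hbb-b2 stood at -1.09 in place of -3.01 and the first Slc4a1 value at -0.06. The globin differences ran from -4.27 to -2.83 (Hba-a1) and from -3.57 to -2.66 (Hbb-b2) with 1 array left out. Against 176 probe sets lower and 362 higher, the counts were 116 and 240 without _s, _x and _a probe sets, 278 lower with trended robust variances, 268 lower with array weights, and 25 to 362 lower and 100 to 498 higher with 1 array left out. Among these fits with 1 array left out, the smallest counts came without knockout replicate 2 and the largest without knockout replicate 1. Of the other red cell genes 2 were lower on means of probe sets, in place of 1, and 0 with any 1 array left out.

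With dim probe sets removed (mean level under the median), the list medians reversed to 0.21 for other globins, where only Hba-a2 remained, and to 0.29 for mast cell, basophil and eosinophil markers. Without _s, _x and _a probe sets that of erythropoietin signalling and iron uptake reversed to 0.0298. In these the cause is fewer genes tested.

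Same-numbered samples deviated together with correlations of 0.05, 0.13 and 0.32, so the numbers were not taken to pair the samples. With the replicate number as a block 426 probe sets were lower and 567 higher. The number 3 samples correlated best with each other, while wild-type replicates 1 and 2 each correlated best with a knockout sample of another number. The levels of the non-globin members, all dim, limit what can be seen in them.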
